A study of Mus musculus with 33 samples.

Results

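The guides described here are the 1373 guide RNAs (gRNAs) of the Rpp25 screen that target the distal side upstream of Rpp25 on mouse chromosome 9. They were chosen by position alone, as the gRNAs whose interval midpoint lies in chr9:57462121-57502101 (mm10), which ends 2 kb before the annotated 5' end of Rpp25 at position 57504102. They make up 1373 of the 3908 gRNAs with a position in that library, which also holds 10 GFP-targeting gRNAs as positive controls. The series mutated regulatory DNA with CRISPR/Cas9 in embryonic stem cells of the mouse and holds 33 samples from 4 reporter lines. Both libraries used here come from the Rpp25 line, in which GFP was fused to the C-terminus of the Rpp25 protein and a dummy guide RNA, the placeholder, sits at ROSA26. GFP-negative cells, sorted after the gRNAs had been electroporated, gave 1 library, and the unsorted bulk population after the same electroporation gave 1 library. Both populations thus shared the tagged gene, the placeholder, the gRNA electroporation and a serum medium with LIF, GSK-3 inhibitor XV and UO126, and differed in the sort. With 1 library each, no test between the populations was possible, and every difference below is a difference between 2 libraries.

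In such a screen Cas9, directed by a gRNA, cuts the matching genomic site, and imperfect repair leaves small insertions or deletions there. A gRNA that gains share among GFP-negative cells can mark a site whose mutation went along with loss of the reporter. Such loss can happen at coding sequence, at a promoter, or at a distal element such as an enhancer. The libraries used here count gRNAs and do not read the mutations at their targets. Rpp25 encodes a protein subunit of ribonuclease P and of the related ribonuclease MRP, which process transfer RNA and ribosomal RNA precursors. Scamp5, the neighbour on the upstream side, encodes a secretory carrier membrane protein best known from synaptic vesicles of neurons.

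The 1373 gRNAs formed 3 clusters separated by gaps of over 3 kb without gRNAs. Cluster 1, with 750 gRNAs, spanned chr9:57462121-57469099, or 42.0 to 35.0 kb upstream of Rpp25, and consisted of a far block ending at 57465120 and a near block starting at 57467105. Of all members, 609 lay in the annotated span of Scamp5 (57441327 to 57468060), which runs on the minus strand, so that its 5' end faces Rpp25. Exons and introns of Scamp5 were not separated, because the gene table used here gives spans only. Cluster 2, with 245 gRNAs, spanned chr9:57494081-57496117 (10.0 to 8.0 kb upstream), and cluster 3, with 378 gRNAs, spanned chr9:57499194-57502088 (4.9 to 2.0 kb upstream). No annotated gene overlapped clusters 2 and 3. The 24982 bp without gRNAs between clusters 1 and 2 hold the annotated pseudogenes D9Wsu149, Gm6166 and Gm18103 and the long non-coding RNA gene Gm51707.

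Sequences could be read for 47 members, those that lie wholly in the window around the Scamp5 5' end (57468011 to 57468310) for which RefSeq sequence of the GRCm38.p6 assembly was at hand. The deposited positions proved to count from 0 at both ends. When each interval was moved up by 1 bp, all 155 gRNAs testable in the promoter windows of Scamp5, Rpp25 and Cox5a had the NGG motif that Cas9 requires (the PAM), against 55 of 155 with no move or with a move of 2 bp. An interval then covers a target of 19 or 20 nt plus its PAM. Positions are given as deposited throughout. The sites below are written 5' to 3' on the strand of the gRNA, with the first base of the target and the PAM in capitals. They show how close gRNAs with bulk counts lie to gRNAs without any. The first 5 had counts in bulk.
chr9:57468226-57468248, minus strand: GcccacctagcacctggacgAGG
chr9:57468123-57468145, minus strand: GaatagccttacgagcagtgTGG
chr9:57468118-57468139, plus strand: GactcccacactgctcgtaAGG
chr9:57468082-57468103, minus strand: GcagcaggcagggcggcacGGG
chr9:57468012-57468033, plus strand: GcgggccgcgagcggctccCGG
The next 5 had no count in either library.
chr9:57468225-57468247, plus strand: TcctcgtccaggtgctaggtGGG
chr9:57468122-57468144, minus strand: AatagccttacgagcagtgtGGG
chr9:57468083-57468105, minus strand: TtgcagcaggcagggcggcaCGG
chr9:57468232-57468254, minus strand: CaaggtgcccacctagcaccTGG
chr9:57468147-57468169, plus strand: AcgagcgctcgcgagaagcaAGG

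Where the sequence could be read, whether a listed gRNA was counted at all went with the first base of its target. In the Scamp5 window, all 27 gRNAs whose target starts with G had bulk counts, from 2 to 84 with a median of 23.0, and the 20 that start with A (4), C (10) or T (6) had none. Over the 3 promoter windows together, 94 of 95 gRNAs starting with G and 0 of 62 starting with another base had a bulk count. The pair at 57468123 and 57468122 above, on the same strand and shifted by 1 base, had 81 bulk counts with a first G and 0 with a first A. In the window every 19-nt target started with G, and over all members 272 of 275 gRNAs of 19 nt (98.9%) had a bulk count, against 366 of 1098 of 20 nt (33.3%). The first base could not be read for members outside the window, and what leads to the missing counts was not tested. In all, 638 of 1373 members (46.5%) had a bulk count, near the 46.1% of the whole table, and the other 735 had no count in either library. The absence of these 735 thus says nothing about GFP, and the measurements below rest on the 638.

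The GFP-negative library held 333608 gRNA counts and the bulk library 74318, so that a gRNA at an unchanged share would have 4.49 times as many counts in GFP-negative cells. Shares below are of these totals, with exact Clopper-Pearson 95% intervals. CPM is the count scaled to the same total in both libraries. Intervals cover counting error only, since PCR reads without molecular identifiers are not independent molecules, and they leave out the spread between cultures and sorts, which 1 library each cannot show. GFP-targeting gRNAs took 42.0% of GFP-negative counts against 0.815% of bulk counts, and the 10 most counted gRNAs took 50.6% against 3.42%. A share falls when others grow, so lower values here are relative to those gRNAs. The placeholder guide had 1 count in GFP-negative cells and 455 in bulk.

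As a group, the distal upstream gRNAs were far scarcer in GFP-negative than in bulk cells. They held 19096 GFP-negative counts, or 5.72% (5.65% to 5.80%), and 27820 bulk counts, or 37.4% (37.1% to 37.8%), a log2 ratio of −2.71 (−2.74 to −2.68). The 665 gRNAs within 2 kb of the Rpp25 5' end, which also cover the gene body, took 46.8% of GFP-negative and 17.1% of bulk counts, a log2 ratio of 1.46. The 1870 gRNAs farther downstream, the last of which ends at position 65197097, took 5.51% and 44.7%, a log2 ratio of −3.02. Both distal sides thus had ratios below 0 and the surroundings of the 5' end a ratio above 0. Among counts of all gRNAs over 2 kb from the 5' end, the upstream ones took 51.0% (50.5% to 51.5%) in GFP-negative and 45.6% (45.2% to 46.0%) in bulk cells, a log2 ratio of 0.16. Without the 3 gRNAs of each side with the most GFP-negative counts, those shares were 53.7% and 45.6%. This relation was examined after the values had been seen, and it has no replicate.

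Most members seen in bulk were not seen in GFP-negative cells. Of the 638 gRNAs with a bulk count, 88 (13.8%, 11.2% to 16.7%) had a GFP-negative count, against 362 of 1807 (20%) over the whole table, 171 of 342 within 2 kb of the 5' end and 94 of 818 (11.5%) on the downstream side. No member, and no gRNA of the whole table, had a GFP-negative count without a bulk count. The GFP-negative library was the deeper, and when it was thinned to the bulk total the share of members was 9.40%, that of the gRNAs within 2 kb 45.3% and that of the downstream ones 8.92%. The chance of being seen grew with abundance in bulk. A GFP-negative count was found for 3 of 102 members with 1 to 9 bulk counts, 28 of 331 with 10 to 49, 38 of 150 with 50 to 99 and 19 of 55 with 100 or more. Among gRNAs within 2 kb of the 5' end the same classes gave 11 of 56, 102 of 206, 40 of 57 and 18 of 23, each a larger share. By target length, 35 of 272 members of 19 nt (12.9%) and 53 of 366 of 20 nt (14.5%) were seen. Their count shares lay farther apart. The 19-nt members took 0.747% of GFP-negative and 16.7% of bulk counts (log2 ratio −4.48), and the 20-nt members 4.98% and 20.7% (−2.06). Within 2 kb of the 5' end the ratios were 1.44 for 19 nt and 1.47 for 20 nt, and on the downstream side −2.72 and −3.39, in the other order.

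The counts that remained were unevenly spread. Of the 88 gRNAs, 24 had a single GFP-negative count, 19 had 2 to 9, 23 had 10 to 99 and 22 had 100 or more. The 3 most counted held 42.1% of all GFP-negative counts of the members and the 10 most counted 79.6%, against 2.67% and 6.80% for the leading gRNAs of bulk. This unevenness was not particular to the members. In GFP-negative cells the leading 3 and 10 held 48.2% and 74.3% on the downstream side, and 35.0% and 50.6% over the whole table. Bulk counts of the 638 ranged from 1 to 286 with a median of 32.0. The highest member, chr9:57501448-57501470, ranked 23 among all gRNAs of the table by GFP-negative count.

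Taking a 4-fold difference in CPM (1 CPM added) among gRNAs with at least 10 counts over both libraries, 8 of 538 members (1.49%) were higher in GFP-negative cells, where 5.64% of the whole table were. The downstream side had 8 of 686 (1.17%) and the gRNAs within 2 kb 63 of 294 (21.4%). In the other direction 512 members (95.2%) were lower, where 87.2% of the whole table were. The remaining 18 lay between. Of the 538 members, 451 had no GFP-negative count. The same held for 593 of 686 gRNAs on the downstream side and 1170 of 1526 over the whole table. Of the 638 members with a bulk count, 14 had a larger CPM in GFP-negative than in bulk cells. At 2-fold, 10 of 538 members (1.86%) were higher, where 7.21% of the whole table were.

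Of the 8 higher gRNAs, 7 had targets of 20 nt and 1 of 19 nt, and 3 lay in cluster 3, nearest to Rpp25. The gRNA chr9:57501448-57501470, 2.64 kb upstream, had 3071 counts in GFP-negative cells and 85 in bulk, or 9205 and 1144 CPM, 8.05-fold (6.49 to 10.1). For chr9:57500763-57500785, 3.33 kb upstream, 2677 and 42 counts were found, or 8024 and 565 CPM, 14.2-fold (10.5 to 19.7). The gRNA chr9:57501735-57501757, 2.36 kb upstream, had 719 and 17 counts, 9.42-fold (5.84 to 16.3). These 3 are the most counted members of the cluster in GFP-negative cells and held 84.9% of its counts there. The 3 most abundant members of cluster 3 in bulk without a GFP-negative count lay side by side between 57499740 and 57499807. They were chr9:57499740-57499762 with 180 bulk counts, chr9:57499760-57499781 with 150 and chr9:57499785-57499807 with 136. Against a floor of 3 GFP-negative counts per gRNA, they were at least 269-fold, 224-fold and 203-fold lower.

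Cluster 2 held a single gRNA past 4-fold higher, which carried most of the cluster's GFP-negative counts. This gRNA, chr9:57496072-57496094 at 8.02 kb upstream, had 1658 counts in GFP-negative cells and 17 in bulk, or 4970 and 229 CPM, 21.7-fold (13.5 to 37.4). It made up 88.6% of the GFP-negative counts of cluster 2. The next in rank were chr9:57495998-57496019, with 155 GFP-negative and 49 bulk counts (0.705-fold, 0.508 to 0.993), and chr9:57495825-57495846, with 22 and 134 (0.0366-fold). The members most abundant in bulk without a GFP-negative count were chr9:57495432-57495454 with 148 bulk counts, chr9:57494442-57494464 with 99 and chr9:57494299-57494321 with 97, at least 221-fold, 148-fold and 145-fold lower.

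Cluster 1 held the other 4, all in the Scamp5 span, as were 247 of the 306 members of the cluster with enough counts. In the far block, chr9:57464353-57464375, 39.74 kb upstream of Rpp25, had 2296 counts in GFP-negative cells and 79 in bulk, 6.47-fold (5.17 to 8.21). The gRNA chr9:57464568-57464590 had 1117 and 6 counts, 41.5-fold with a wide interval (19 to 113) because of its few bulk counts. It reached the minimum of 10 counts only through the GFP-negative library. With the minimum set on bulk counts alone, 7 of 536 members (1.31%) were higher, where 5.10% of the whole table were. In the near block, chr9:57467396-57467417 had 971 and 32 counts, 6.76-fold (4.76 to 9.94), and chr9:57467758-57467780 had 725 and 35, 4.61-fold (3.29 to 6.68). Below the 4-fold line, chr9:57467258-57467280 had 1092 and 98 counts (2.48-fold), chr9:57462704-57462726 had 871 and 94 (2.06-fold), and chr9:57464618-57464640 had 429 and 59 (1.62-fold). The 3 most abundant in bulk without a GFP-negative count were chr9:57462818-57462840 with 286 bulk counts, chr9:57468774-57468795 with 157 and chr9:57464212-57464234 with 153. They were at least 428-fold, 235-fold and 229-fold lower.

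Each of the 3 clusters held a smaller part of the GFP-negative counts than of the bulk counts. Cluster 1 took 2.88% of GFP-negative and 21.1% of bulk counts, a log2 ratio of −2.87 (−2.91 to −2.84). Cluster 2 took 0.561% and 5.19%, a log2 ratio of −3.21 (−3.29 to −3.13), and cluster 3 took 2.28% and 11.1%, a log2 ratio of −2.29 (−2.33 to −2.24). Cluster 3 thus had the highest ratio, but these ratios followed single gRNAs. Without the most counted GFP-negative gRNA of each, they were −3.25 for cluster 1, −6.33 for cluster 2 and −3.0 for cluster 3. The share of gRNAs seen in GFP-negative cells among those seen in bulk depends less on single gRNAs. It was 42 of 358 (11.7%, 8.59% to 15.5%) in cluster 1, 14 of 103 (13.6%, 7.63% to 21.8%) in cluster 2 and 32 of 177 (18.1%, 12.7% to 24.6%) in cluster 3, with intervals that overlap. After thinning it was 8.38%, 8.74% and 11.9%. The clusters were close at low bulk counts, with 3.70%, 0% and 3.03% seen in clusters 1, 2 and 3 at 1 to 9 bulk counts and 7.45%, 11.9% and 8.33% at 10 to 49. At 50 to 99 the shares were 22.6%, 22.2% and 33.3%. Among members with 100 or more bulk counts, 7 of 32 were seen in GFP-negative cells in cluster 1, 1 of 2 in cluster 2 and 11 of 21 in cluster 3.

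In tiles of 500 bp, 0 of 24 had a larger share in GFP-negative than in bulk cells, with GFP-targeting gRNAs in the totals. Without them the ratio of all members rose from −2.71 to −1.94. Every tile rises by the same amount, so the tiles nearest to 0, at −0.55 and −0.75, change sign. The highest ratios were −0.55 on the log2 scale at 57501000 to 57501499, where chr9:57501448-57501470 held 96.7% of the tile's GFP-negative counts, and −0.75 at 57496000 to 57496499, where chr9:57496072-57496094 held 91.2%. Between such tiles lay others with almost no GFP-negative count. The tile starting at 57500000 had 1 GFP-negative and 1111 bulk counts, and the tile starting at 57494000 had 1 and 549.

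In the sequenced window at the Scamp5 5' end, GFP-negative counts were few. Its 27 gRNAs with bulk counts held 1 GFP-negative and 839 bulk counts, a log2 ratio of −11.88 with a wide counting interval (−17.18 to −9.40). At the bulk share 3766 counts would have been found. The single count belonged to chr9:57468012-57468033, printed above, which had 14 in bulk. The 4 other counted gRNAs printed there had 84, 81, 77 and 67 bulk counts, in the order printed, and none in GFP-negative cells. For comparison, in the matching window of the Rpp25 promoter, outside the distal region, 22 of 35 gRNAs with bulk counts were seen in GFP-negative cells, and the window had 11942 GFP-negative and 971 bulk counts. In the window of Cox5a, a gene on the downstream side, 7 of 32 were seen, with 731 GFP-negative and 1114 bulk counts (log2 ratio −2.77). Tiles with as few GFP-negative counts were also found in clusters 2 and 3. Within 1 kb of the Scamp5 5' end on either side, 341 members held 3656 GFP-negative and 7227 bulk counts (log2 ratio −3.15). The 141 members of cluster 1 beyond the Scamp5 span took 0.174% of GFP-negative and 4.54% of bulk counts (log2 ratio −4.71), and the 609 inside it took 2.71% and 16.6% (−2.61). The share of gRNAs seen differed less, with 7 of 71 outside (9.86%, 4.06% to 19.3%) and 35 of 287 inside (12.2%, 8.64% to 16.6%).

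None of the 8 higher gRNAs had another of the 8 nearby. Members whose midpoints lie within 50 bp of one of the 8 and that had a bulk count numbered 59, of which 12 (20.3%) had a GFP-negative count, against 13.8% of all members. Of the 47 of them with at least 10 counts, 44 were over 4-fold lower, where 95.2% of all members were. None of them could be past 4-fold higher, since the 8 are the only such members and lie apart. The neighbours were thus lower about as often as the members at large, and were seen somewhat more often. Whether closeness to one of the 8 goes with being seen was not tested. Of the 28 gRNAs with a bulk count whose intervals overlap one of the 8 by 1 bp or more, 7 had a GFP-negative count. At least 10 counts were found for 22 of the 28. Of these 22, 20 were over 4-fold lower and 2 lay between, where 18 of 538 members lay between. The gRNA chr9:57496073-57496095, shifted by 1 bp from chr9:57496072-57496094, had 0 GFP-negative and 16 bulk counts, beside 1658 and 17. The gRNA chr9:57500766-57500788, shifted by 3 bp from chr9:57500763-57500785, had 0 and 49 counts, beside 2677 and 42. The 2 overlapping gRNAs that were not lower both lay in cluster 3. They were chr9:57501737-57501758, with 169 and 30 counts (log2 ratio 0.33), next to chr9:57501735-57501757, and chr9:57501456-57501477, with 80 and 20 counts (−0.17), next to chr9:57501448-57501470. Many of the overlaps cover a small part of the target, and strand and cut position could not be read outside the promoter windows.

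Within 2 kb of the 5' end the picture was different. There, 58 of 63 gRNAs past 4-fold higher had another within 50 bp, against 0 of 8 on the distal upstream side and 0 of 8 downstream. Higher gRNAs were also far denser near the gene, and no test of the difference was made. Pairs of a 19-nt and a 20-nt gRNA that share a start or an end were set side by side as well. Of 58 such pairs among the members with at least 10 counts each, 1 had GFP-negative counts in both gRNAs, 13 in 1 of them and 44 in neither. The pair with both was chr9:57467761-57467783, with 96 GFP-negative and 87 bulk counts, and chr9:57467762-57467783, with 2 and 82. Of 40 such pairs within 2 kb of the 5' end, 19 had GFP-negative counts in both, 13 in 1 and 8 in neither. The numbers of pairs follow the share of gRNAs seen at all, which was 13.8% of members and 171 of 342 within 2 kb, and whether paired gRNAs go together beyond that was not tested.

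At the edge of the region nearest to Rpp25, 85 members of the last 500 bp held 1509 GFP-negative and 1195 bulk counts, and 8 of 47 with a bulk count were seen in GFP-negative cells. The first 500 bp beyond the edge, with 76 gRNAs, held 532 and 1147 counts, and 8 of 33 were seen.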

How the data were processed

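The deposited table of the Rpp25 line holds raw counts of each gRNA in 1 GFP-negative and 1 bulk library, made by PCR from genomic DNA per the labels' protocols. The submitters' processing notes name mm10. Neither the counting program nor how many cells were sorted is stated in those sources. The title of the GFP-negative library names Rpp26, while its description and tagged gene name Rpp25 and were followed. The placeholder guide was left out of totals. With 1 library each there was no test and no paired fit. Log2 ratios of CPM had 1 CPM added; ratios of shares and folds with intervals had nothing added, and their 95% intervals are exact and conditional on the summed counts. In python 3.11.15 with scipy 1.17.1, the fold calculation was run on simulated counts drawn from bulk shares. Those ratios were centred on unchanged gRNAs, which the ratios here were not. The simulated counts also lacked the unevenness of the GFP-negative library, so the run does not test the calls as made. Named gRNAs are, per cluster, the 3 with most GFP-negative counts and the 3 with most bulk counts among those without a GFP-negative count, and over all members the 10 with the largest log2 ratio at 10 or more bulk counts. Neighbours, pairs and printed sites were picked after values were seen. The position rule for the members uses no counts, but the rule and the lists were set with earlier results of these data known. Genes and sequences are from RefSeq tables of GRCm38.p6, the assembly behind mm10. A planned class of remaining Rpp25 body gRNAs was empty. The other lines and the deep sequencing were not used here.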

Additional observations from a re-analysis of the deposited data

How the results depend on the processing

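The log2 share ratio of all distal upstream gRNAs, −2.71, was −1.94 with totals without GFP-targeting gRNAs, −1.70 without the 10 most counted gRNAs of each library and −2.93 for gRNAs over 5 kb upstream, which leaves out cluster 3. Of the alternatives chosen after seeing the data, it was −3.46 without the 3 leading members, 0.16 among counts of gRNAs over 2 kb from the 5' end only, and 0.24 with those counts and without the 3 leading gRNAs of each side. That total leaves out both the GFP-targeting gRNAs and those within 2 kb of the 5' end, which together held most GFP-negative counts. With totals without GFP-targeting gRNAs the clusters had −2.10, −2.44 and −1.51, and without their leading gRNA −3.25, −6.33 and −3.0. The share of members seen in GFP-negative cells, 13.8%, was 9.24% at 3 or more counts, 8.02% at 10 or more and 9.40% after thinning. The number over 4-fold higher, 8 of 538, was 8 to 9 across pseudocounts, count minimums and totals. It was 7 with the minimum on bulk counts alone (also chosen after seeing the data), 10 at 2-fold and 5 at 8-fold. The last 2 are 1.86% and 0.929% of members, where 7.21% and 3.93% of the whole table were higher. The number lower, 512, was 410 to 612 over the same settings. The 410 were of 436 members at a minimum of 20 counts, and the 612 of 638 without a minimum. The share of members lower stayed at 93.9% to 95.9%, where 84.3% to 89.2% of the whole table were. A gap of 1 kb gave 4 clusters and one of 5 kb gave 2, in place of 3. Counting the placeholder in the totals gave −2.70 for all members. Of 22 named gRNAs, 1 changed sign, chr9:57495998-57496019, with 0.27 for totals without GFP-targeting gRNAs, in place of −0.50. With those totals 9 others moved beyond their counting interval without a change of sign, such as chr9:57464353-57464375 with 3.47 in place of 2.69, and 12 did not. The 12 include every named gRNA without a GFP-negative count. For these the interval has no lower limit and the added 1 CPM sets the ratio, so they could hardly move. No paired analysis was possible because each population of the Rpp25 line has 1 library. A gRNA with few bulk counts, such as the 6 of chr9:57464568-57464590, has the widest interval, and gRNAs without bulk counts were not measured.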
